A study of Mus musculus with 13 samples.

Results

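The genes described here belong to the endoplasmic reticulum (ER) stress response and the integrated stress response: Atf4, Ddit3, Atf3, Xbp1, Trib3, Chac1, Sesn2, Asns, Hspa5 and Herpud1. They were chosen by name for their known roles and matched in the authors' deposited comparison table. All 10 could be tested, of 15582 genes tested in all. The question was whether very high expression of a gene from a plasmid brings a stress response. The study compared 4 control and 4 Ikzf1 RNA-seq libraries from CD1 mouse retina of postnatal day 0. Both groups were dissociated, transfected, kept in culture for 9 h and sorted for GFP. The control cells expressed GFP, and the Ikzf1 cells expressed Ikzf1 and GFP from an Ikzf1-IRES-GFP construct. Ikzf1 encodes the zinc finger factor Ikaros. Control replicates held 400000 cells and Ikzf1 replicates 300000, so cell number and construct cannot be told apart. Both groups carried a plasmid and went through the same handling, and no untransfected cells were analysed here. Any response to transfection, dissociation or sorting that both groups share is therefore outside the comparison. The labels call the replicates biological but do not say how many animals each came from.

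The ER stress response starts from sensors in the ER membrane, among them PERK (Eif2ak3), IRE1 (Ern1) and ATF6. PERK and its related kinases phosphorylate the translation factor eIF2, which lowers protein synthesis in general but raises translation of the Atf4 messenger, so Atf4 can act without a change in its RNA. ATF4 and CHOP (the Ddit3 product) then activate genes of amino acid supply, redox balance and cell death, while ATF6 and spliced XBP1 activate chaperones and degradation factors of the ER. In the retina this system is best known from photoreceptors that carry misfolded rhodopsin.

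Letter matches to the promoter elements through which ATF4 and ATF6 act are shown for 5 of the genes, because 2 genes with the same letters changed in opposite directions. The sequences are from RefSeq (GRCm38.p6), 5′ to 3′ on the strand of the gene. Capitals mark the match to TGATGNAAN (the C/EBP-ATF element, in either orientation) or, in Hspa5, to the ER stress response element, a CCAAT box and CCACG at a fixed distance, searched on both strands.
Chac1, chr2:119351028-119351076, plus strand: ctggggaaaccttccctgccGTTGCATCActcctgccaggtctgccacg
Herpud1, chr8:94386296-94386344, plus strand: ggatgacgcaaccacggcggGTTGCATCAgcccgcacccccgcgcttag
Atf3, chr1:191183426-191183454, minus strand: ccttctcgcaCTTGCATCAccaagtccgc
Asns, chr6:7693214-7693242, minus strand: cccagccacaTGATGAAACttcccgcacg
Hspa5, chr2:34772020-34772048, plus strand: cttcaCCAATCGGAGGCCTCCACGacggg
Chac1 and Herpud1 carried the identical match GTTGCATCA, at 194 to 186 and at 113 to 105 bases before the RefSeq start. Trib3 held a further match, TTTACATCA, at 13 to 21 bases after its start. The C/EBP-ATF element was thus found, on either strand, in 5 of the 10 promoters (250 bases before to 50 after the start), against 3.95% of all 32851 promoters of the table. The ER stress response element was found in 1 of the 10 and in 0.119% of all promoters. The cyclic AMP response element TGACGTCA was found in 0 of the 10 and in 1.79% of all promoters, and the Ikaros core letters TGGGAA in 3 of the 10 (Sesn2, Asns and Xbp1) and in 25.6% of all. These are matches of letters, and binding was not measured at them here. Because the genes were chosen by name for known roles in these responses, a higher share among them is no independent finding.

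The libraries held 21.4 to 27.1 M estimated read pairs in the controls and 24.5 to 30.5 M in the Ikzf1 group. Ikzf1 took 15.9 to 17.2% of the reads of each Ikzf1 library and at most 0.00909% of a control. Its CPM rose by 11.25 on the log2 scale (edgeR adjusted p 2.79e-34). Reads from the plasmid count toward it. Mitochondrial genes took 2.43 to 2.95% of the reads in the controls and 2.18 to 2.51% in the Ikzf1 libraries. Both are shares of all reads, Ikzf1 reads included, so the many Ikzf1 reads lower the share in the Ikzf1 libraries. The 2 ranges are therefore not directly comparable. The labelled cell type is retinal progenitor. Progenitor markers summed to 1311 to 1418 CPM (reads scaled to the TMM-adjusted library size) in the controls and to 1061 to 1097 CPM in the Ikzf1 libraries, with 4 of 7 called lower and Pax6 higher. Photoreceptor precursor markers summed to 1059 to 1237 and 707 to 817 CPM. Retinal ganglion cell markers summed to 19.4 to 24.0 CPM in the controls and to 54.3 to 64.5 CPM in the Ikzf1 libraries, with 3 of 3 tested called higher (Sncg, Rbpms and Isl1) and Pou4f2 at 0.174 and 0.309 CPM. Amacrine and horizontal markers summed to 178 to 232 CPM in the controls and to 189 to 221 CPM in the Ikzf1 libraries, with 2 of 5 called lower. For comparison, 59.1% of all tested genes were called at an edgeR adjusted p under 0.05. Microglial markers (7 of 9 with a value) stayed at 1.61 to 3.78 CPM in sum in all 8 libraries, and the endothelial sum of 407 to 477 CPM against 211 to 250.3 CPM was almost all Kdr, with Pecam1 at 3.06 and 2.92 CPM. None of the erythroid markers reached a mean of 5 normalised counts. Pigment epithelium markers (3 of 6 with a value) summed to 2.46 to 3.73 CPM in the controls and to 1.96 to 3.08 CPM in the Ikzf1 libraries, with Rpe65 at 0. In bulk libraries fewer cells of a type and less RNA per cell cannot be told apart, and the part of these shifts in cell makeup in the results below was not tested.

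In the Ikzf1 libraries Trib3, Herpud1 and Ddit3 were higher, and Chac1, Xbp1, Sesn2, Asns and Atf3 were lower. These 8 of the 10 had an edgeR adjusted p under 0.05. Atf4 and Hspa5 did not pass. The same threshold was passed by 59.1% of all tested genes, with 29.3% higher and 29.8% lower. Passing it therefore says little about these 10 genes in particular. The median log2 fold change of the 10 was -0.11, against 0.00 over all tested genes. Only Chac1 and Trib3 moved by at least 1 on the log2 scale, a size reached by 4.96% of all tested genes upward and 6.4% downward. The other 8 stayed within 0.38 on the log2 scale, where the median absolute change was 0.29 over all tested genes and 0.45 over the called ones. The CPM groups did not overlap for 7 of the 10, against 53.1% of all tested genes.

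**Figure D1:**
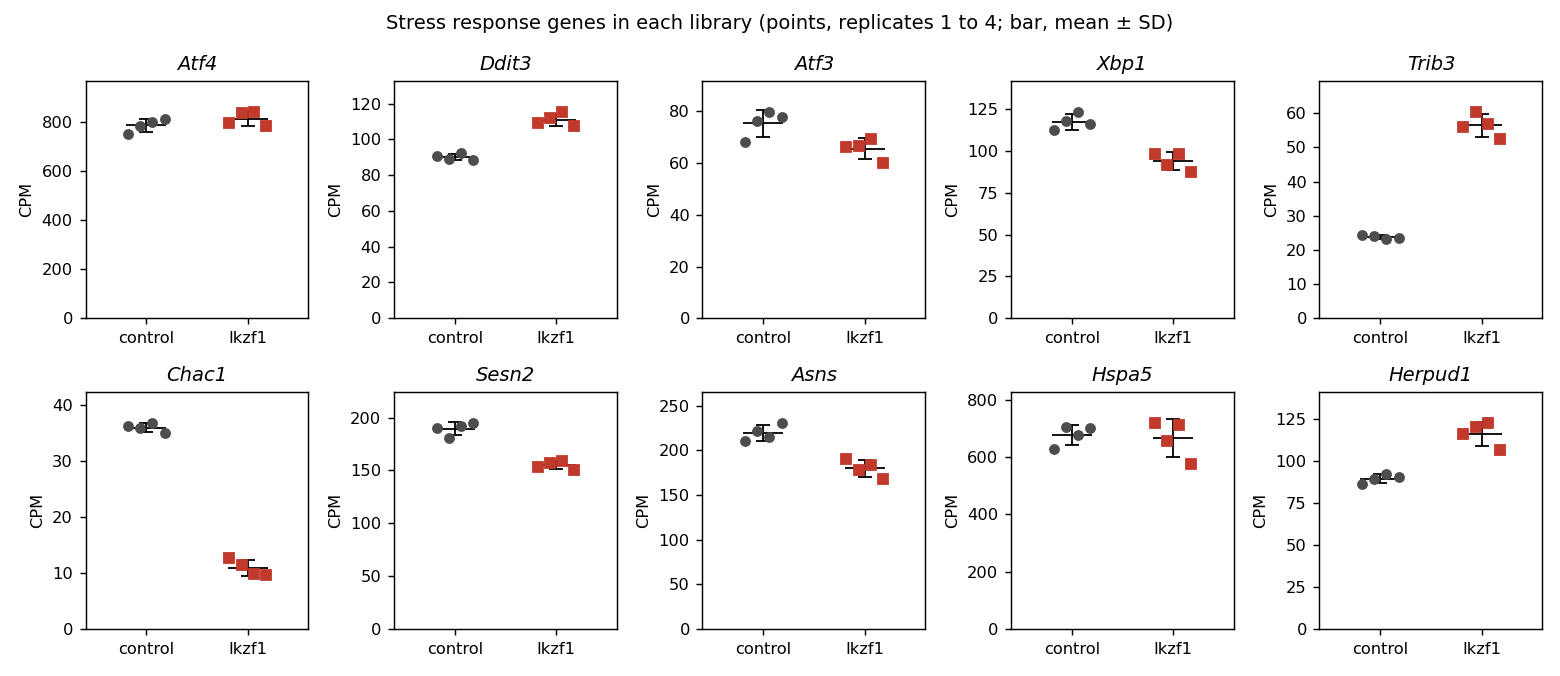
CPM of each of the 10 genes (vertical axis, from 0) in the 4 control (grey circles) and 4 Ikzf1 libraries (red squares), in the order of replicates 1 to 4, with the mean and SD. Chac1 lies between 9.66 and 12.6 CPM in the Ikzf1 libraries and Trib3 between 52.5 and 60.4 CPM, both far from their controls, while Atf4, Hspa5 and Atf3 overlap between the groups.

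None of the 4 transcription factors differed by more than 0.32 on the log2 scale. Atf4 encodes the bZIP factor at the centre of the integrated stress response, and its messenger was the most abundant of the 10. It stood at 752, 783, 800.5 and 811 CPM in control replicates 1 to 4 and at 796, 836, 841 and 782 CPM in Ikzf1 replicates 1 to 4. The groups overlapped. Atf4 differed by 0.05 on the log2 scale (standard error 0.04, edgeR adjusted p 0.350), and the 95% interval ran from -0.04 to 0.14. The call depended on the scaling: with library sizes that leave Ikzf1 out and no TMM factors, Atf4 was higher by 0.10 (edgeR adjusted p 0.0315), and in limma on log2(TPM + 1) by 0.11 (adjusted p 0.0347). RNA levels give no reading of how much Atf4 was translated.

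Ddit3 encodes CHOP, a bZIP factor that ATF4 induces and that promotes cell death in prolonged stress. It stood at 90.5, 89.0, 92.3 and 88.7 CPM in the controls and at 109, 112, 115 and 108 CPM in the Ikzf1 libraries. Every Ikzf1 library was above every control. Ddit3 rose by 0.30 on the log2 scale, 1.23-fold (standard error 0.04, edgeR adjusted p 8.37e-07). Its size was near the middle of all tested genes: 48.2% changed by more in one direction or the other, and the median absolute change was 0.29. Per read of Atf4 in the same library, which needs no scaling between libraries, Ddit3 had 0.109 to 0.120 reads in the controls and 0.134 to 0.138 in the Ikzf1 libraries. Ddit3 (GRCm38 chromosome 10, 127290774 to 127296288, plus strand) overlaps the last part of Mars1 on the other strand by 68 bases, where reads are uncertain because strand use in counting was not given in the sources used here. A further gene entry named Ddit3 lies within it and had a mean of 0 in the authors' deposited table.

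Atf3 encodes a stress-induced bZIP factor that is also an immediate early gene, switched on within minutes by growth factors and handling. It stood at 68.0, 76.2, 79.8 and 77.8 CPM in the controls and at 66.4, 66.8, 69.2 and 60.1 CPM in the Ikzf1 libraries. Control replicate 1 lay within the range of the Ikzf1 libraries. Atf3 fell by 0.20 on the log2 scale (standard error 0.05, edgeR adjusted p 0.00227), the smallest of the 8 called changes. The call was lost in limma on log2(TPM + 1), at -0.12 (adjusted p 0.177), and in the authors' deposited table the adjusted p from DESeq2 was 0.0457 at -0.17.

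Xbp1 encodes a bZIP factor whose messenger IRE1 splices in the cytoplasm to yield the active form. It stood at 112, 118, 123 and 116 CPM in the controls and at 98.5, 91.5, 98.4 and 87.6 CPM in the Ikzf1 libraries, with no overlap. Xbp1 fell by 0.32 on the log2 scale (standard error 0.05, edgeR adjusted p 1.30e-06). The spliced and the unspliced messenger were not measured apart here, so the activity of IRE1 was not read from these values.

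Among feedback factors and effectors, 2 genes usually grouped as targets of ATF4 and CHOP went in opposite directions. Trib3 encodes a pseudokinase that ATF4 and CHOP induce and that restrains both them and AKT signalling. It stood at 24.2, 24.1, 23.1 and 23.5 CPM in the controls and at 56.0, 60.4, 56.8 and 52.5 CPM in the Ikzf1 libraries. The lowest Ikzf1 library was above all controls by more than the whole spread of either group. Trib3 (ENSMUSG00000032715, GRCm38 chromosome 2, 152337422 to 152344032, minus strand) rose by 1.25 on the log2 scale, 2.38-fold (standard error 0.06, edgeR adjusted p 1.30e-16). Of the tested genes, 521 had a higher log2 fold change.

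Chac1 encodes an enzyme that breaks down glutathione and is commonly read as a marker of ATF4 and CHOP activity. It stood at 36.2, 35.9, 36.8 and 35.0 CPM in the controls and at 12.6, 11.5, 9.78 and 9.66 CPM in the Ikzf1 libraries. All Ikzf1 libraries were far below the controls, on 244 to 296 reads each. Chac1 (ENSMUSG00000027313, GRCm38 chromosome 2, 119351229 to 119354381, plus strand) fell by 1.73 on the log2 scale, which is 3.32-fold (standard error 0.08, edgeR adjusted p 8.97e-17). Of the tested genes, 246 had a lower log2 fold change. Chac1 was highest in Ikzf1 replicate 1, which also had the lowest share of Ikzf1 reads, 15.9%, and a relation between them was not tested over 4 libraries.

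The split between Trib3 and Chac1 can be read within each library. Trib3 had 0.669, 0.671, 0.628 and 0.670 reads per read of Chac1 in the controls and 4.44, 5.27, 5.81 and 5.43 in the Ikzf1 libraries. The mean ratio was 7.94 times higher in the Ikzf1 libraries (5.24 ± 0.576 against 0.660 ± 0.0210, SD, n = 4 each). This pair was picked after the values were seen, so no test is given. Set against Atf4 of the same library, Trib3 went from 0.0302 to 0.0693 reads per Atf4 read and Chac1 from 0.0458 to 0.0134. Both ratios moved in the direction of the CPM, with no scaling between libraries in them.

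Sesn2 encodes a leucine sensor that holds back the growth kinase mTORC1 and is induced by ATF4 and by p53. It stood at 189.9, 181, 192 and 195 CPM in the controls and at 154, 157, 159 and 150.01 CPM in the Ikzf1 libraries, with no overlap. Sesn2 fell by 0.29 on the log2 scale (standard error 0.04, edgeR adjusted p 8.36e-07). Asns makes asparagine and is a standard target of ATF4. It stood at 209.9, 221, 215 and 231 CPM in the controls and at 189.95, 177, 184 and 168 CPM in the Ikzf1 libraries, again with no overlap. Asns fell by 0.29 on the log2 scale (standard error 0.05, edgeR adjusted p 3.88e-06).

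The 2 genes of the ER itself differed. Hspa5 encodes BiP, the main chaperone of the ER lumen, which holds the sensors inactive until unfolded protein draws it away, and whose messenger is the usual reading of ER stress. It stood at 628, 704, 676 and 699.9 CPM in the controls and at 719, 656, 712 and 577 CPM in the Ikzf1 libraries. The Ikzf1 libraries spread on both sides of the controls, with the highest and the lowest value of all 8. Hspa5 differed by -0.02 on the log2 scale (standard error 0.06, edgeR adjusted p 0.751), and the 95% interval ran from -0.14 to 0.09. Its sign turned to 0.05 without Ikzf1 replicate 4 (edgeR adjusted p 0.441) and to 0.03 with library sizes that leave Ikzf1 out and no TMM factors, with no call in either.

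Herpud1 encodes a ubiquitin-like protein of the ER membrane that helps to remove misfolded proteins (ER-associated degradation, ERAD). It stood at 86.0, 89.1, 92.3 and 90.3 CPM in the controls and at 116, 119.9, 123 and 106 CPM in the Ikzf1 libraries, with no overlap. Herpud1 rose by 0.38 on the log2 scale, 1.30-fold (standard error 0.05, edgeR adjusted p 1.09e-07). Herpud1 had 0.127 to 0.137 reads per read of Hspa5 in the controls and 0.161 to 0.184 in the Ikzf1 libraries, with no overlap.

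**Figure D2:**
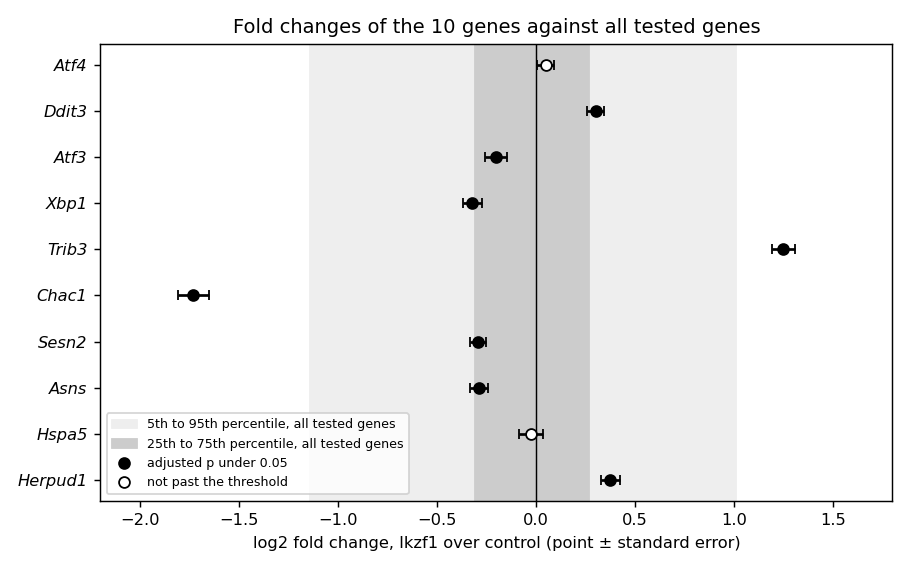
Log2 fold change of Ikzf1 over control (horizontal axis, point with its standard error) for the 10 genes, filled where the edgeR adjusted p is under 0.05, over bands for the 5th to 95th percentile (-1.14 to 1.01) and the 25th to 75th percentile (-0.31 to 0.27) of all tested genes. Trib3 and Chac1 lie outside the wider band on opposite sides, and the other 8 lie within it.

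The authors' deposited table gave the same directions for all 10 genes. Its log2 fold changes were 1.13 for Trib3, 0.35 for Herpud1, 0.28 for Ddit3, 0.05 for Atf4, -0.03 for Hspa5, -0.25 for Asns, -0.28 for Sesn2, -0.33 for Xbp1 and -1.69 for Chac1 in the authors' deposited table, which rests on the same reads and was used to join transcripts to genes.

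Levels of different genes were compared per transcript length, as TPM with Ikzf1 left out of the total. In the controls the order from high to low was Atf4 (944 ± 38.0 TPM), Hspa5 (652 ± 42.0), Ddit3 (248 ± 3.95), Asns (230.4 ± 9.65), Xbp1 (137 ± 7.43), Herpud1 (111 ± 6.60), Sesn2 (108 ± 3.73), Atf3 (78.1 ± 5.86), Chac1 (45.9 ± 1.02) and Trib3 (27.7 ± 2.77; all SD, n = 4). Herpud1 and Sesn2 overlapped in range, and the other neighbours did not. In the Ikzf1 libraries the order of the first 4 was unchanged. Herpud1 (148 ± 11.0 TPM) stood above Xbp1 (113 ± 7.51), and Trib3 (63.4 ± 3.27) stood above Chac1 (14.5 ± 1.73), with no overlap in either pair, while Atf3 and Trib3 now overlapped. Atf4 and Hspa5 thus led the order in the GFP controls too. The control cells had themselves been dissociated, transfected and sorted, and the part of that handling in the levels of these genes was not tested.

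**Figure D3:**
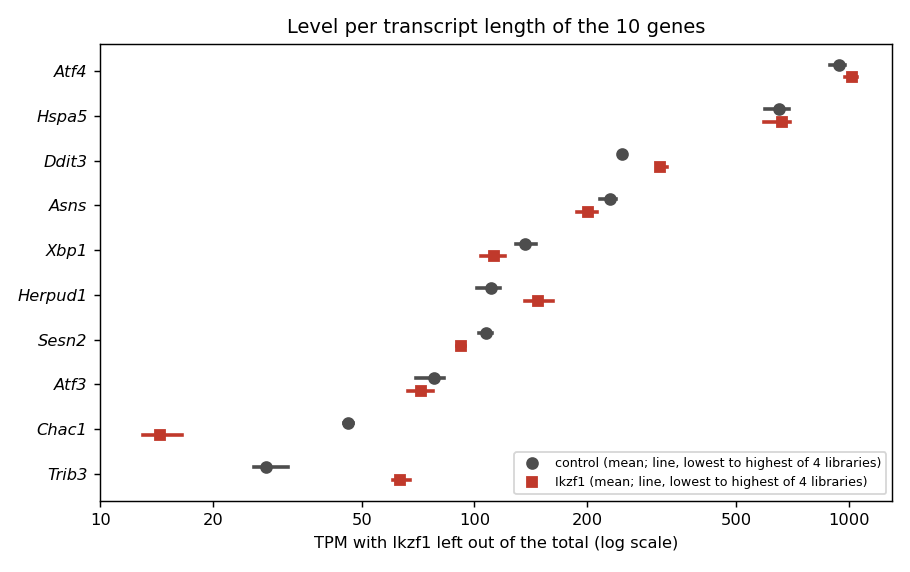
TPM of the 10 genes with Ikzf1 left out of the total (horizontal log axis), as the mean (marker) and the lowest to highest of 4 libraries (line) in the controls (grey) and the Ikzf1 libraries (red), ordered by the control mean. The order changes at 2 places, where Herpud1 passes Xbp1 and Trib3 passes Chac1.

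The lowest library of the Ikzf1 group was the same for all 10 genes, while the highest one differed between them. Ikzf1 replicate 4 had the lowest CPM of its group for all 10, a place it took for 25.2% of all tested genes and for 46 of the 120 genes (38.3%) in the 6 related lists below. Control replicate 1 was the lowest control for 6 of the 10, against 27.5% of all tested genes. Without Ikzf1 replicate 4, 8 of the 10 still passed, with Trib3 at 1.29, Herpud1 at 0.42, Ddit3 at 0.32 and Chac1 at -1.67. The coefficient of variation between libraries lay between 1.82% (Ddit3) and 6.86% (Atf3) in the controls. In the Ikzf1 libraries it lay between 2.48% (Sesn2) and 13.0% (Chac1), with Hspa5 at 9.88%.

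Of 21 genes of sensing and eIF2 control, 4 were higher, 9 were lower and 8 did not pass (median log2 fold change -0.08). That is 61.9% called, near the 59.1% of all tested genes. Ern1, which encodes IRE1, rose by 0.24 from 37.4 ± 2.15 to 44.2 ± 2.68 CPM (edgeR adjusted p 0.000951). Eif2ak3, which encodes PERK, fell by 0.31 from 244 ± 11.4 to 197 ± 7.99 CPM (edgeR adjusted p 8.02e-07). Atf6 did not pass, at 115 ± 6.22 and 111 ± 6.26 CPM (log2 fold change -0.04, edgeR adjusted p 0.470). The messengers of the 3 ER sensors thus had 1 rise, 1 fall and 1 without a call.

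Among the other eIF2 kinases, Eif2ak2 (PKR, which responds to double-stranded RNA) fell by 1.16, from 70.8 ± 3.40 to 31.7 ± 4.12 CPM (SD, n = 4 each, edgeR adjusted p 1.22e-12). Eif2ak1 (0.09, edgeR adjusted p 0.117) and Eif2ak4 (0.07, edgeR adjusted p 0.217), which sense heme and amino acid shortage, did not pass. Both passed with library sizes that leave Ikzf1 out and no TMM factors, at 0.15 and 0.13. The phosphatase subunits that reverse eIF2 phosphorylation were lower: Ppp1r15a (GADD34, itself induced by ATF4) fell by 0.33 and Ppp1r15b by 0.16. The Ppp1r15b call was lost with an offset for transcript length (-0.08, edgeR adjusted p 0.149). Ppp1r15b did not pass in the authors' deposited table either (-0.07, DESeq2 adjusted p 0.199). Mbtps1, a protease that activates ATF6, rose by 0.40, and Mbtps2, the other protease of that step, fell by 0.43. Impact, an inhibitor of the kinase GCN2, rose by 0.39.

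Transcription and signalling genes downstream of the integrated stress response were mostly lower. Of 16 tested, 11 were lower, 4 were higher and 1 (Cebpg) did not pass, a share of calls of 93.75% beside 59.1% for all tested genes, with a median log2 fold change of -0.66. The largest falls were those of Gdf15, a secreted stress hormone (from 4.30 ± 0.632 to 1.34 ± 0.385 CPM, log2 fold change -1.68), and of Nupr1, a small stress-induced nuclear protein (from 18.9 ± 1.35 to 5.95 ± 0.586 CPM, -1.67). The next largest falls were those of Eif4ebp1 (-1.27), Tnfrsf10b (-0.89), Atf5, a close relative of Atf4 (-0.88), Stc2 (-0.86) and Vldlr, a lipoprotein receptor (-0.80). The largest rises were those of Pmaip1, which encodes the cell death protein NOXA (from 30.0 ± 0.233 to 65.4 ± 5.98 CPM, 1.12), and Cebpb, a bZIP factor (from 9.78 ± 1.05 to 18.2 ± 2.62 CPM, 0.89). Several of these genes (Gdf15, Pmaip1, Bbc3 and Tnfrsf10b) are also known as p53 targets. Eif4ebp1, Atf5, Stc2, Vldlr, Bbc3 and Tnfrsf10b were named after their values were seen.

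Of 21 genes of amino acid supply under ATF4, 13 were lower, 4 were higher and 4 did not pass (median log2 fold change -0.22), where 29.8% of all tested genes were lower and 29.3% higher. Pck2, a mitochondrial enzyme of glucose synthesis, fell by 0.89 and Slc3a2, the shared subunit of several amino acid transporters, by 0.61 (from 318 ± 4.28 to 209 ± 6.67 CPM). Cth, which makes cysteine, rose by 1.20, from 11.5 ± 0.125 to 26.6 ± 1.41 CPM, and Got1, an aspartate transaminase, by 0.69. The tRNA synthetases and their exportin, whose genes ATF4 raises together in classical stress, split into 4 higher, 6 lower and 3 not called of 13, all within -0.20 to 0.40 (median -0.07). Sars (0.40) and Cars (0.26) rose most, and Tars (-0.20) and Yars (-0.16) fell most. The count of lower synthetases depended on the scaling, with 2 in place of 6 when library sizes left Ikzf1 out and no TMM factors were used, and Yars was among the lost calls (edgeR adjusted p 0.0581).

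Of 23 chaperones and folding enzymes of the ER, 5 were higher, 6 were lower and 12 did not pass (median log2 fold change -0.04), a share of calls of 47.8% against 59.1% for all tested genes. Sil1, the exchange factor of BiP, rose by 1.18, from 6.78 ± 0.174 to 15.4 ± 0.854 CPM, and the oxidase Ero1lb by 0.76. Pdia5, a disulfide isomerase, fell by 0.99 and the prolyl isomerase Fkbp11 by 0.70. ERAD and translocation, the largest list, had the most genes higher: of 26, 11 were higher, 2 lower and 13 did not pass (median 0.05). Its share of calls was 50%, beside 59.1% of all tested genes, of which 29.3% were higher and 29.8% lower. Sel1l (from 156 ± 3.35 to 239.7 ± 5.91 CPM, 0.62), which anchors the HRD1 ubiquitin ligase, and Ube2j1 (0.56), its conjugating enzyme, rose most, and Derl2 (-0.38) and the translocon channel Sec61a1 (-0.22) fell. Herpud1, which works with the same ligase, rose as well (above). Syvn1, which encodes the HRD1 ligase itself, did not pass, at 80.3 ± 2.80 and 76.4 ± 4.80 CPM (-0.07, edgeR adjusted p 0.227). Syvn1 was named after its values were seen.

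Over the 6 lists together, 120 genes were tested, of which 32 (26.7%) were higher and 47 (39.2%) lower, beside 29.3% and 29.8% of all tested genes, with a median log2 fold change of -0.05. Of the other stress programs, the cytosolic heat shock list had 5 higher and 6 lower of 18 (median -0.02), with Dnajb1 up by 0.32 and Hspb1, a small heat shock protein, down by 2.00 (from 21.1 ± 0.789 to 5.29 ± 1.10 CPM). The oxidative stress list under NRF2 had 3 higher and 5 lower of 12 (median -0.11). Me1 rose by 0.86 there, and Nqo1 (-0.85, edgeR adjusted p 0.0458, 1.31 and 0.723 CPM) lost its call under 9 of 13 alternatives.

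Immediate early genes, which mark handling as well as growth signals, were lower in the Ikzf1 libraries in 13 of 14 cases (median -0.86), where 29.8% of all tested genes were lower, and 0 were higher with edgeR (1 at an unadjusted p of 0.05, and 1 with DESeq2). Egr2 fell by 2.59, from 34.6 ± 1.74 to 5.76 ± 1.10 CPM (SD, n = 4 each). This shift lies beside the fall of Atf3, which belongs to both groups of genes, and its part in that fall was not tested.

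**Figure D4:**
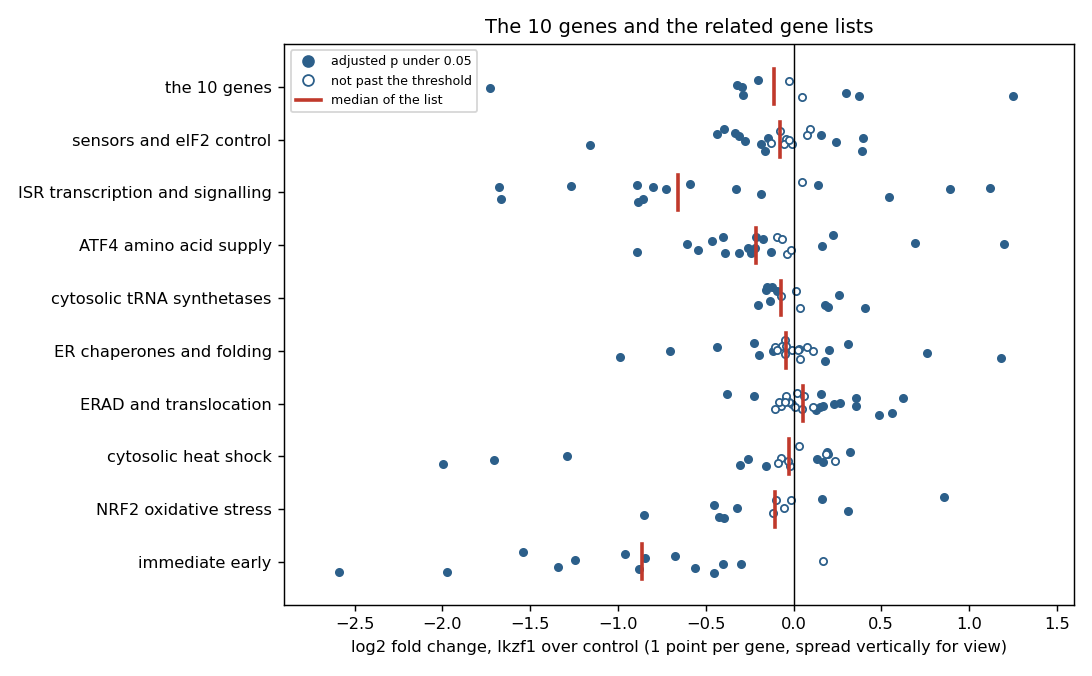
Log2 fold change of Ikzf1 over control (horizontal axis) for each of the 10 genes and each gene of the 9 related lists, with filled points for an edgeR adjusted p under 0.05 and a red bar at the median. The list of integrated stress response transcription and signalling (median -0.66) and the immediate early list (median -0.86) lie to the left, and the other lists have medians between -0.22 and 0.05.

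Several of the 10 genes have more than 1 transcript in the files. For 7 of them at least 2 transcripts had a mean of 50 reads or more, and the share of the leading transcript was compared by an exact permutation test over 4 against 4 libraries, where the smallest p is 0.0286. For Atf3 the leading transcript (ENSMUST00000027941.13, 1984 bases) took 91.7, 97.0, 95.7 and 94.1% of the reads of the gene in the controls and 87.2, 79.0, 79.2 and 87.8% in the Ikzf1 libraries. The groups did not overlap, and the mean share was 11.3 points lower (exact two-sided permutation p 0.0286, adjusted 0.200 over the 7 genes). That is the smallest p the design allows, and 1 gene alone at it cannot pass after adjustment over 7 genes. The adjusted value therefore decides nothing here. In CPM, that transcript went from 71.5 ± 6.23 to 54.6 ± 2.44, while a second one (ENSMUST00000195117.1, 1906 bases) went from 3.99 ± 1.46 to 10.9 ± 3.52 (SD, n = 4 each). The 2 transcripts thus had opposite directions, on reads that salmon divided between overlapping transcripts. For the other 6 genes the shares moved by at most 5.17 points, with exact permutation p of 0.200 to 0.971. The 5.17 points were those of Herpud1, whose difference was -5.17 with all libraries and -1.80 without Ikzf1 replicate 1, which had a share of 69.9%.

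The genes whose pattern over the 8 libraries was most like that of Ddit3 were Sun1, Tiparp and Mmp17 (Pearson r of log2 CPM 0.996, 0.995 and 0.994). Those most like Hspa5 were Cdv3, Pdha1 and Dstn (r 0.987, 0.970 and 0.963). These values are descriptions over 8 libraries that share the contrast between the groups, and the Hspa5 pattern rests on the spread within groups.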

How the data were processed

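RNA-seq of 4 control and 4 Ikzf1 libraries was used; the CUT&RUN peak lists were not used here. The deposited salmon files give estimated counts of read pairs per transcript and TPM values, per the file headers; Salmon and DESeq2 are named in the submitters' processing notes without versions, and index, options and strand use are not given in the sources used here. The authors' deposited comparison table gives, per the file headers, a mean normalised signal per gene, log2 fold changes, their standard error and Wald score, and p-values; its gene positions lie on GRCm38, where all 10 genes overlap their RefSeq entries.

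Transcripts were joined to genes by the deposited mean: sets of at most 60 adjacent transcripts were compared with it, and a set was taken where it matched within a relative tolerance of 5e-09. Among 16815 genes at a mean of 5 or more, 16733 were joined (99.5%), holding 99.07 to 99.2% of the reads; slightly moved means found a set for 0.488%. Estimated counts were summed, rounded, filtered with filterByExpr, scaled by TMM and tested in edgeR 4.0.16 (quasi-likelihood F test, robust, two-sided, no covariate), with Benjamini-Hochberg adjustment over 15582 genes and a threshold of 0.05. Standard errors were derived from the fold change and its F statistic (size over root F), and 95% intervals from a normal distribution. limma 3.58.1 and DESeq2 1.42.0 served as alternatives. Scripts were tested on simulated data. P-values measure the spread between these replicates.

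The 10 genes, the lists and the alternatives were chosen with earlier results of these data known. Named beside the 10 were Ikzf1, the sensors, eIF2 kinases and phosphatase subunits, and the called genes with the largest rises and falls of each list (2 each way for the 6 lists of the pathway, 1 for the other 3, mean of at least 1 CPM). Same-numbered libraries did not deviate together (correlations -0.0513 to 0.00542), so the numbers were not taken as pairs.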

Additional observations from a re-analysis of the deposited data

Results flagged for a closer look

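Of 106 sets of 4 values examined, 6 held a value whose distance from its nearest neighbour passed Dixon's 95% limit. Chance gives about 1 in 20 such groups. None of the 10 genes was among them. Pmaip1 stood at 56.4 CPM in 1 Ikzf1 library against 68.1 to 68.5 in the others. Egr2 stood at 7.41 CPM in 1 Ikzf1 library against 5.13 to 5.26, Tars at 180.3 against 173 to 174, and Eif2ak4 at 54.5 against 51.1 to 51.4. Among the controls, Impact stood at 63.7 CPM in 1 library against 56.8 to 57.9, and Nupr1 at 20.9 against at most 18.5.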

How the results depend on the processing

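Between 7813 and 9393 genes passed under the alternatives, against 9202, and 8 of the 10 genes passed under 13 of 14 alternatives. The exception had 9, and in limma on TPM Atf4 replaced Atf3 among the 8. Atf3 was at -0.12 in limma with a pseudocount of 1 or 0.1. The 9 included Atf4, which passed at 0.10 with library sizes without Ikzf1 and no TMM factors and at 0.11 in limma with either pseudocount. Hspa5 turned to 0.030 with those library sizes and no TMM factors and to 0.028 in limma with either pseudocount, and ranged from -0.058 to 0.047 when 1 library was left out. Leaving Ikzf1 out of library sizes and dropping the TMM factors together raised the median of all genes from 0.00 to 0.06 and turned Atf6 to 0.012; 2 synthetases were then lower and 8 ER chaperones higher, and 1 immediate early gene was higher, as with DESeq2 (0 to 1 when 1 library was left out). The difference in leading transcript share turned to 0.159 points for Atf4 and -0.731 for Asns when computed from TPM. When 1 library was left out it ranged from -0.305 to 0.401 for Atf4, from -0.732 to 2.41 for Xbp1 and from -7.08 to -1.80 for Herpud1. The causes were not tested. The replicate block left 8883 genes (8 of the 10) and lost no call among the 10; the replicate numbers are only names here. Leaving out each library in turn for the likeness values was added after the data were seen, and r stayed at 0.946 or above. In the Ikzf1 libraries Chac1, on 244 to 296 reads, was the least deeply covered of the 10.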
